A study of Mus musculus with 15 samples.

Results

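The genes described here are 57 named genes in the distal part of mouse chromosome 19, chosen because their RNA signal was lower in 2 lung-derived cell lines than in the line those came from. The choice used measured values: the line means of the lung lines L1P and L2P against E1KD on these arrays. Differences between those lines are therefore given as a description and were not tested. Of the 57 genes, 56 were read through a probe set with exactly 1 gene symbol, out of 18193 genes read on the arrays, and Chuk was not analysed here. A mean log2 signal above 6 over all 15 arrays was reached by 47 of the 56, against 8209 of all genes. The other 9, As3mt, Btrc, Cnnm2, Entpd1, Grk5, Pdcd4, Rab11fip2, Tcf7l2 and Trub1, were kept in the tests and left out of the median lung-line differences. The means closest to that limit were 6.71 for Tctn3 and 6.72 for Ldb1 above it, and 5.93 for Grk5 and 5.89 for Pdcd4 below it.

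RNA of 5 related mouse lines was hybridised to Affymetrix expression arrays, 3 arrays per line. NMuMG is a wild-type, non-tumorigenic epithelial line from normal mouse mammary gland. E1KD is NMuMG with hnRNP E1 silenced. The other 3 lines descend from it and are silenced as well, though the RNA signal of the silenced gene differed among them. M1P came from a tumour that E1KD formed in the mammary fat pad, L1P from the lungs of mice given E1KD in the fat pad, and L2P from the lungs of mice given L1P in the same way. The hosts were NOD/SCID mice, which lack functional T and B cells. Each name stands for 1 line, so the tests compare lines and not lines derived independently. Nothing in the labels tells separate cultures from repeat arrays of 1 culture, so the p-values measure a spread between arrays that may be technical.

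As background, the distal part of mouse chromosome 19 is gene-rich and holds genes of many unrelated functions side by side. Sufu holds back the Gli factors of Hedgehog signalling, Nfkb2 encodes the p100 precursor of the non-canonical NF-kB pathway, Btrc is the F-box protein that marks inhibitors of NF-kB and beta-catenin for degradation, and Tcf7l2 is a DNA-binding partner of beta-catenin. Smc3 is a core subunit of cohesin and Eif3a a core subunit of the translation initiation factor eIF3.

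Pcbp1, the gene of hnRNP E1, had a log2 signal of 12.68 ± 0.10 in NMuMG (SD, n = 3) and between 7.95 and 10.09 on the 12 arrays of silenced lines. Its level differed among the silenced lines. The lung lines were lowest, with means of 8.15 ± 0.18 (L2P) and 8.49 ± 0.42 (L1P) and highest arrays of 8.30 and 8.78. The E1KD mean was 9.25 ± 0.22 with a lowest array of 8.99, and the M1P mean was 9.83 ± 0.36. All lung-line arrays thus lay below all E1KD arrays for the silenced gene too. A link between this and the members' values was not tested. Over all probe sets, correlations within a line were 0.93 to 0.996. The M1P arrays differed among themselves, and L2P array 1 stood apart from the other L2P arrays, in many members at once. In some members, such as Smc3 (4.16, 5.35 and 7.99), M1P arrays 1 and 2 lay away from array 3. In others, such as Pcgf6 (6.81, 8.71 and 8.67), M1P array 1 alone lay apart. Single arrays of E1KD and NMuMG also lay apart in some members, such as Smc3 (8.25, 9.44 and 8.13 in E1KD, 8.50, 6.62 and 7.47 in NMuMG). Such spread was not confined to members: Nipbl, on chromosome 15, read 7.56, 8.47 and 7.39 in E1KD and 4.54, 4.56 and 6.85 in M1P. Of 8 epithelial markers, 4 (Cdh1, Krt8, Krt18 and Krt19) lay above 6 in every line and 4 (Epcam, Cldn3, Cldn4 and Cldn7) below 6 in every line. The mean of the epithelial list ran from 8.47 to 8.56 over the E1KD arrays, 8.50 to 8.62 in L1P and 8.37 to 8.69 in L2P. Single markers in it differed in direction. Cdh1 had means of 11.17 ± 0.19 in E1KD, 10.71 ± 0.31 in L1P and 10.47 ± 0.03 in L2P (± SD). Krt19 had 12.60 ± 0.11 in E1KD, 13.15 ± 0.22 in L1P and 13.09 ± 0.30 in L2P. All 7 fibroblast, 5 endothelial and 4 alveolar or airway markers lay below 6 in every line, as did 5 of 6 leukocyte markers. The sixth, Cd68, had a mean of 6.18 in L2P and of 5.01 to 5.65 in the other lines. Lyz2, the lysozyme of macrophages, had means of 4.19 ± 0.05 in E1KD, 5.03 ± 0.20 in L1P and 5.20 ± 0.45 in L2P (mean ± SD of 3 arrays). Line means of Ptprc, the leukocyte-defining Cd45 gene, were 2.46 to 2.63. The leukocyte list mean ran from 3.92 to 4.14 in E1KD, 4.12 to 4.34 in L1P and 4.29 to 4.57 in L2P; the part of other cell types in the members' values was not tested.

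The members stood lower than in E1KD on every lung-line array. On each array the median over the 47 members was taken after subtracting each gene's E1KD mean. This median was -0.49, -0.51 and -0.53 on the 3 L1P arrays and -0.23, -0.54 and -0.56 on the L2P arrays. It was 0.07, -0.06 and 0.04 on the E1KD arrays themselves, 0.15, 0.25 and 0.19 in NMuMG and 0.40, 0.13 and -0.19 in M1P. So all 6 lung arrays lay below all 9 others, and L2P array 1 and M1P array 3 came closest to each other. Genes on the other chromosomes, treated in the same way, had medians from -0.08 to 0.15 over the 15 arrays. In bulk RNA, fewer cells that carry a transcript and less of it per cell cannot be told apart.

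**Figure D1:**
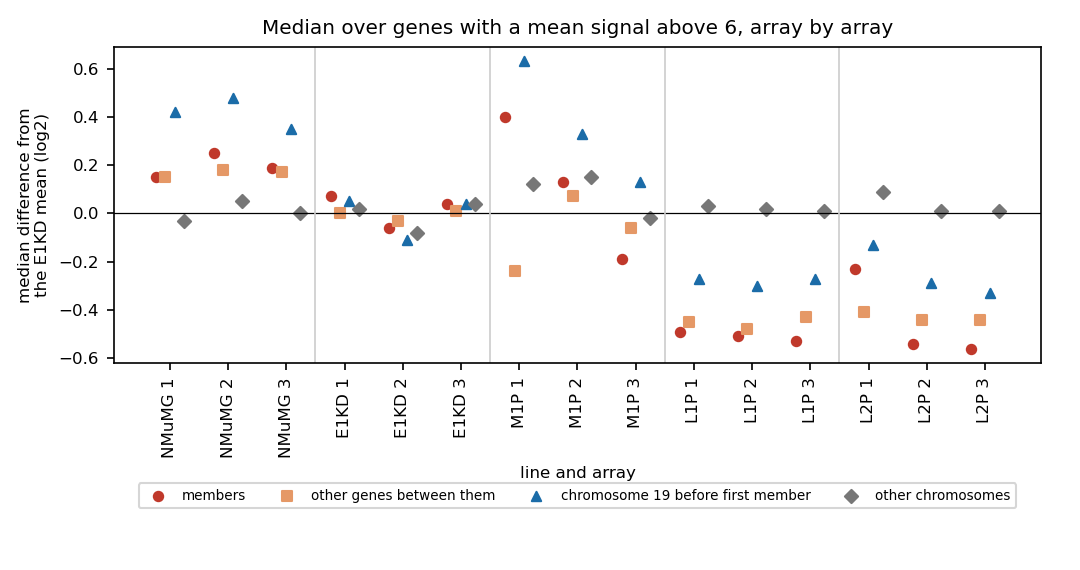
Median difference from the E1KD mean (log2, vertical axis) on each of the 15 arrays, for the 47 members, for other chromosome 19 genes between them, for chromosome 19 genes before the first member and for genes on other chromosomes. Members lie between -0.56 and -0.23 on the 6 lung-line arrays and between -0.19 and 0.40 on the other 9, while other chromosomes stay between -0.08 and 0.15.

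The size of the difference was modest and similar in both lung lines. Over the 47 members the median difference of L1P from E1KD was -0.53 (quartiles -0.67 and -0.31), or 69.2% of the E1KD signal. For L2P it was -0.44 (quartiles -0.61 and -0.25), or 73.9%; without L2P array 1 it was -0.54. In L1P 46 of 47 members had a lower mean than in E1KD, and in L2P 45, with 44 lower in both. Over all 8209 genes with a mean above 6 the medians were 0.02 and 0.01.

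Array by array, the separation was less complete than these medians. All 3 L1P arrays lay below all 3 E1KD arrays for 35 of the 47 members and for 38 of all 56. The background was 15.6% of genes with a mean above 6 and 13.4% of all genes. For L2P the same separation held for 26 of the 47 and 29 of the 56, against backgrounds of 11.9% and 9.59%. No member above 6 had all its lung-line arrays above E1KD. Without L2P array 1, which stands apart, the other L2P arrays lay below all E1KD arrays for 38 of the 47 and 42 of the 56. By the same count this held for 24.9% of all genes. The share among genes with a mean above 6 was not counted. In 14 of the 56 members neither lung line separated from E1KD in either direction. The genes were chosen by their lung-line values against E1KD, so these counts are a description and not a test. The lung values that chose the members also enter the gaps to the other lines, which are therefore given only as levels: against NMuMG the median of the 47 was -0.70 in L1P and -0.61 in L2P, with 42 lower in each, and against M1P it was -0.50 and -0.35. Against M1P array 3 alone it was -0.20 in each.

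**Figure D2:**
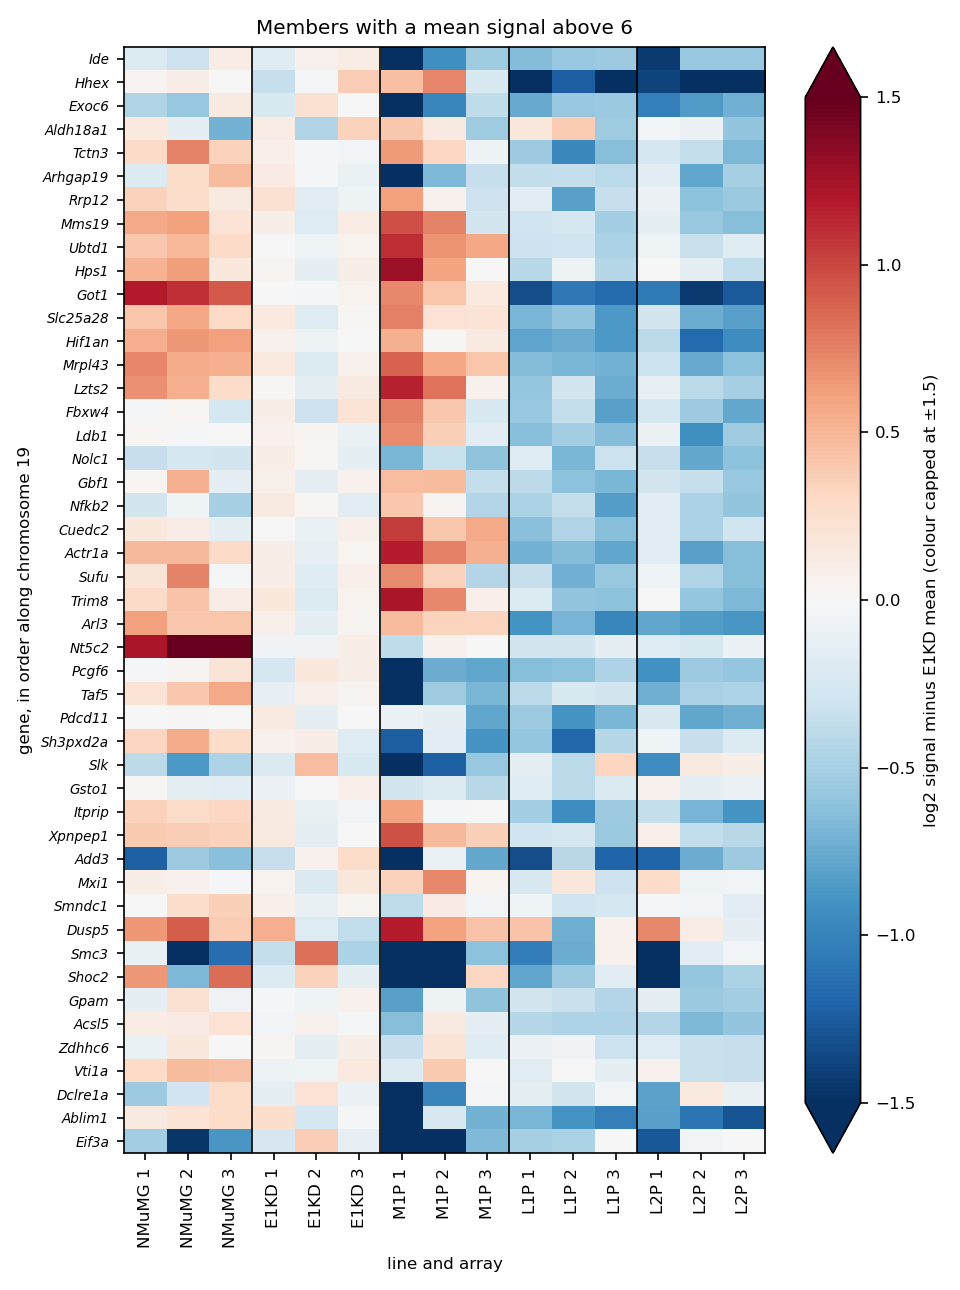
Difference of each array from the gene's E1KD mean (log2, colour, capped at 1.5 in either direction) for the 47 members in chromosome order, with arrays grouped by line. The L1P and L2P columns are mostly blue, NMuMG is mixed, and M1P array 1 holds both the deepest blues (Smc3, Eif3a, Shoc2) and strong reds (Actr1a, Trim8).

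The most lowered member was Hhex, a homeobox transcription factor best known from liver, thyroid and blood development. Its log2 signal was 9.51, 9.57 and 9.48 in NMuMG, 9.12, 9.44 and 9.84 in E1KD, 9.92, 10.20 and 9.24 in M1P, 7.98, 8.23 and 7.86 in L1P and 8.08, 7.70 and 7.76 in L2P. Every lung-line array lay below every other array, with differences from E1KD of -1.44 and -1.62, and the 3 other lines overlapped. Got1, the cytosolic aspartate aminotransferase of the malate-aspartate shuttle, followed. It read 10.11, 10.01 and 9.84 in NMuMG, 8.91, 8.89 and 8.97 in E1KD, 9.64, 9.34 and 9.07 in M1P, 7.59, 7.85 and 7.76 in L1P and 7.86, 7.49 and 7.66 in L2P. Got1 thus stood at 3 levels without overlap between NMuMG, E1KD and the lung lines, with the M1P arrays between those of NMuMG and E1KD.

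At the other end, 2 members of ordinary signal hardly differed. Mxi1, a Max-binding repressor that counters Myc, read 7.93, 7.66 and 8.05 in E1KD, 7.65, 8.04 and 7.57 in L1P and 8.16, 7.82 and 7.84 in L2P. Dusp5, a nuclear phosphatase that acts on ERK, read 8.20, 7.46 and 7.28 in E1KD, 8.08, 6.92 and 7.72 in L1P and 8.37, 7.76 and 7.52 in L2P. In both genes the arrays of the 3 lines overlapped. The third of the most positive members was As3mt, the arsenite methyltransferase, whose signal was low throughout: 2.93, 2.70 and 2.79 in E1KD, 4.0, 4.10 and 3.68 in L1P and 4.18, 3.69 and 3.69 in L2P. As3mt was the only member with all arrays of both lung lines above E1KD, opposite to what the name of the group says.

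The promoters of these 4 genes with a mean above 6, the pair most lowered and the pair least lowered, are printed to show what sequence the differences sit beside. They run from 250 bases before to 50 bases after the start that RefSeq lists first, 5′ to 3′ on the strand of the gene, and capitals mark CG pairs. In build GRCm38.p6 they lie at chr19:37434591-37434890 on the plus strand for Hhex, chr19:43524556-43524855 on the minus strand for Got1, chr19:53310256-53310555 on the plus strand for Mxi1 and chr19:53528895-53529194 on the plus strand for Dusp5.
Hhex: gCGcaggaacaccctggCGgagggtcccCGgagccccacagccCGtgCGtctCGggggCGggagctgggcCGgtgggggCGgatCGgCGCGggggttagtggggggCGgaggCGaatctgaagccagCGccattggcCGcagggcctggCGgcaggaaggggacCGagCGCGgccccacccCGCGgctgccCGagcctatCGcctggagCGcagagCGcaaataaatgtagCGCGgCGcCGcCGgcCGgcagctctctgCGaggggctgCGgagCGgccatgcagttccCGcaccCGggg
Got1: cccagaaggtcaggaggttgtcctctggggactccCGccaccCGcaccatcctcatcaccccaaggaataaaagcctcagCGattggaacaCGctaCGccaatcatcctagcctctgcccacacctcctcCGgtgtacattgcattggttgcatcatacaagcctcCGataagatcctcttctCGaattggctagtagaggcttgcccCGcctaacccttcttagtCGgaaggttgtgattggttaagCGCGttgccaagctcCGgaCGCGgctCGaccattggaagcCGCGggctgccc
Mxi1: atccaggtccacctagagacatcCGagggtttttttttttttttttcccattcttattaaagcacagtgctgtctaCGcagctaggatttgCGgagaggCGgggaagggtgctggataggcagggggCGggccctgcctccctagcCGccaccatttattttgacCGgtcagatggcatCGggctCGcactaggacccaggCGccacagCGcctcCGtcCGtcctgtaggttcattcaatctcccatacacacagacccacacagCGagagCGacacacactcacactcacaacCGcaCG
Dusp5: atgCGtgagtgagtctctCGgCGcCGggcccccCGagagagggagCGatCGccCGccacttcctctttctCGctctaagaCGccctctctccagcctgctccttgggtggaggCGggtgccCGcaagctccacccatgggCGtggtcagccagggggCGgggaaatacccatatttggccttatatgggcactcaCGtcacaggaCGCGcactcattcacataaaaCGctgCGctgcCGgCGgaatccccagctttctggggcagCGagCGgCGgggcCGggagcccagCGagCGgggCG

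The windows hold 37 CG pairs in Hhex, 18 in Got1, 17 in Mxi1 and 28 in Dusp5, so the counts of the lowered and the unlowered pair overlap. None of the 4 contains TATAAA on either strand. RefSeq gave a window for 51 of the 56 members, with a median of 21 CG pairs, against 22 over 6788 genes with a mean above 6 and 7 over all 27025 windows of the table. TATAAA occurred on either strand in 2 of the 51 (3.92%), in 6.32% of windows of genes with a mean above 6 and in 14.2% of all windows.

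Medians of role groups were taken over their genes above 6. The signalling members held 10 measured genes, and the 7 above 6 had medians of -0.53 in L1P and -0.42 in L2P against E1KD. Hif1an, the asparagine hydroxylase that limits HIF-1 activity when oxygen is present, was the most lowered. It read 8.08, 8.18 and 8.15 in NMuMG, 7.60, 7.45 and 7.54 in E1KD, 8.06, 7.55 and 7.67 in M1P, 6.74, 6.79 and 6.67 in L1P and 7.12, 6.36 and 6.60 in L2P. All lung-line arrays lay below all others. Lzts2, a leucine zipper protein that restrains nuclear beta-catenin, had the highest signal of the group, with 8.41, 8.24 and 8.52 in E1KD, 7.81, 8.12 and 7.65 in L1P and 8.27, 7.99 and 7.89 in L2P. The L1P arrays lay below E1KD and the L2P arrays overlapped with it. Nfkb2 differed from E1KD by -0.56 and -0.42, Sufu by -0.55 and -0.39, Trim8, a ubiquitin ligase of cytokine signalling, by -0.48 and -0.42, and Shoc2, a scaffold of the Ras and Raf pathway, by -0.50 and -0.92. Below the limit of 6, Tcf7l2 differed by -0.54 and -0.63, Grk5, a kinase of G protein-coupled receptors, by -0.54 and -0.55, and Btrc by -0.26 and -0.24.

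The 5 transcription and chromatin genes had medians of -0.58 in L1P and -0.56 in L2P. Besides Hhex and Mxi1 they are Pcgf6, Ldb1 and Taf5. Pcgf6, a subunit of a variant Polycomb repressive complex, read 9.20, 9.61 and 9.54 in E1KD, 8.81, 8.83 and 8.99 in L1P and 8.54, 8.90 and 8.87 in L2P. Its 6 lung-line arrays all lay below E1KD. Ldb1, the adaptor of LIM-domain factors, differed by -0.60 and -0.52, and Taf5, a subunit of TFIID, by -0.30 and -0.56. Among the 3 genome maintenance genes the medians were -0.36 and -0.45, and no gene had both lung lines separate from E1KD. Smc3 read 8.25, 9.44 and 8.13 in E1KD, 7.57, 7.86 and 8.67 in L1P and 7.00, 8.44 and 8.57 in L2P, so its lines overlapped despite mean differences of -0.58 and -0.60. Mms19, which delivers iron-sulfur clusters to DNA repair enzymes, differed by -0.36 and -0.45, and Dclre1a, a nuclease of crosslink repair, by -0.15 and -0.26.

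Of 8 translation and RNA processing genes, 6 lay above 6, with medians of -0.42 and -0.50. Pdcd11, a factor of ribosomal RNA processing, read 9.28, 9.01 and 9.15 in E1KD, 8.61, 8.27 and 8.46 in L1P and 8.92, 8.37 and 8.42 in L2P, and separated from E1KD in both lines. Eif3a, with the highest signal of the group, read 12.13, 12.75 and 12.26 in E1KD, 11.88, 11.91 and 12.39 in L1P and 11.11, 12.34 and 12.38 in L2P. Its lines overlapped, and the lowest of these values came from L2P array 1. Mrpl43, a mitochondrial ribosomal protein, differed by -0.69 and -0.57, Rrp12 and Nolc1, which act in ribosome assembly, by -0.44 and -0.42 and by -0.40 and -0.57, and the spliceosome factor Smndc1 by -0.21 and -0.08. Below the limit, Pdcd4, an inhibitor of translation initiation, differed by -0.15 and -0.25 and Trub1, a pseudouridine synthase, by -0.44 and -0.32.

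Of the 9 membrane traffic and cilium genes, the 8 above 6 had medians of -0.59 in L1P and -0.42 in L2P. Arl3, a small GTPase that releases lipid-modified cargo in cilia, read 10.45, 10.25 and 10.26 in NMuMG, 9.92, 9.71 and 9.88 in E1KD, 10.32, 10.17 and 10.17 in M1P, 8.94, 9.14 and 8.86 in L1P and 9.06, 9.00 and 8.97 in L2P. The lung-line arrays lay clear of all others by more than the range within any line. Zdhhc6, a palmitoyltransferase of the endoplasmic reticulum and the gene with the highest signal here, read 10.52, 10.35 and 10.57 in E1KD, 10.39, 10.43 and 10.16 in L1P and 10.29, 10.15 and 10.14 in L2P; L1P overlapped with E1KD and L2P lay below it. The dynactin subunit Actr1a differed by -0.72 and -0.54, the ciliary transition zone gene Tctn3 by -0.72 and -0.43, the exocyst subunit Exoc6 by -0.63 and -0.86 and the Arf exchange factor Gbf1 by -0.56 and -0.40. Hps1, of the complex that builds lysosome-related organelles, differed by -0.31 and -0.17 and the SNARE Vti1a by -0.10 and -0.20. Rab11fip2, an effector of recycling endosomes below the limit of 6, differed by -0.22 and -0.72.

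The 5 cytoskeletal genes had medians of -0.73 in L1P and -0.48 in L2P. Ablim1, an actin-binding LIM protein, read 8.21, 7.69 and 7.93 in E1KD, 7.27, 7.05 and 6.93 in L1P and 7.14, 6.85 and 6.66 in L2P, with both lung lines separate from E1KD. A second Ablim1 probe set with a mean of 6.70 gave -0.89 and -1.19, beside -0.86 and -1.06 for the one used. Arhgap19, a GTPase-activating protein, read 8.41, 8.27 and 8.19 in E1KD, 7.92, 7.93 and 7.88 in L1P and 8.12, 7.51 and 7.79 in L2P, and separated in both. Add3, an adducin of the spectrin and actin network, differed by -0.98 and -0.83, the podosome scaffold Sh3pxd2a by -0.73 and -0.20 and the kinase Slk by -0.08 and -0.24.

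Of the 12 genes of metabolism, transport and proteolysis, the 9 above 6 had medians of -0.37 and -0.41. Gsto1, an omega-class glutathione transferase with the highest signal of all members named here, read 12.91, 13.01 and 13.08 in E1KD, 12.82, 12.60 and 12.78 in L1P and 13.06, 12.87 and 12.91 in L2P. L1P lay below E1KD by a difference of -0.27, and L2P overlapped with it at -0.06. Slc25a28, a mitochondrial iron importer, differed by -0.71 and -0.61, the insulin-degrading protease Ide by -0.59 and -0.86, and Acsl5 and Gpam, which activate fatty acids and start glycerolipid synthesis, by -0.44 and -0.56 and by -0.35 and -0.41. The aminopeptidase Xpnpep1 differed by -0.37 and -0.23 and the nucleotidase Nt5c2 by -0.23 and -0.18. Aldh18a1, of proline synthesis, differed by 0.00 and -0.24. Below the limit of 6, Entpd1 differed by -0.21 and -0.28 and Cnnm2 by -0.01 and -0.10.

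The last 4 genes, Cuedc2, Fbxw4, Itprip and Ubtd1, had medians of -0.57 and -0.42. Itprip, which binds the inositol trisphosphate receptor, read 7.41, 7.16 and 7.23 in E1KD, 6.76, 6.34 and 6.73 in L1P and 6.91, 6.57 and 6.39 in L2P, and both lung lines lay below E1KD. Cuedc2, a ubiquitin-binding CUE domain protein, read 10.17, 10.06 and 10.24 in E1KD, 9.53, 9.71 and 9.52 in L1P and 9.99, 9.69 and 9.86 in L2P, again without overlap. Fbxw4 differed by -0.58 and -0.53 and Ubtd1 by -0.36 and -0.19. The role groups therefore had medians within -0.73 to -0.36 in L1P and -0.56 to -0.41 in L2P, and no test of a difference among them was made.

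**Figure D3:**
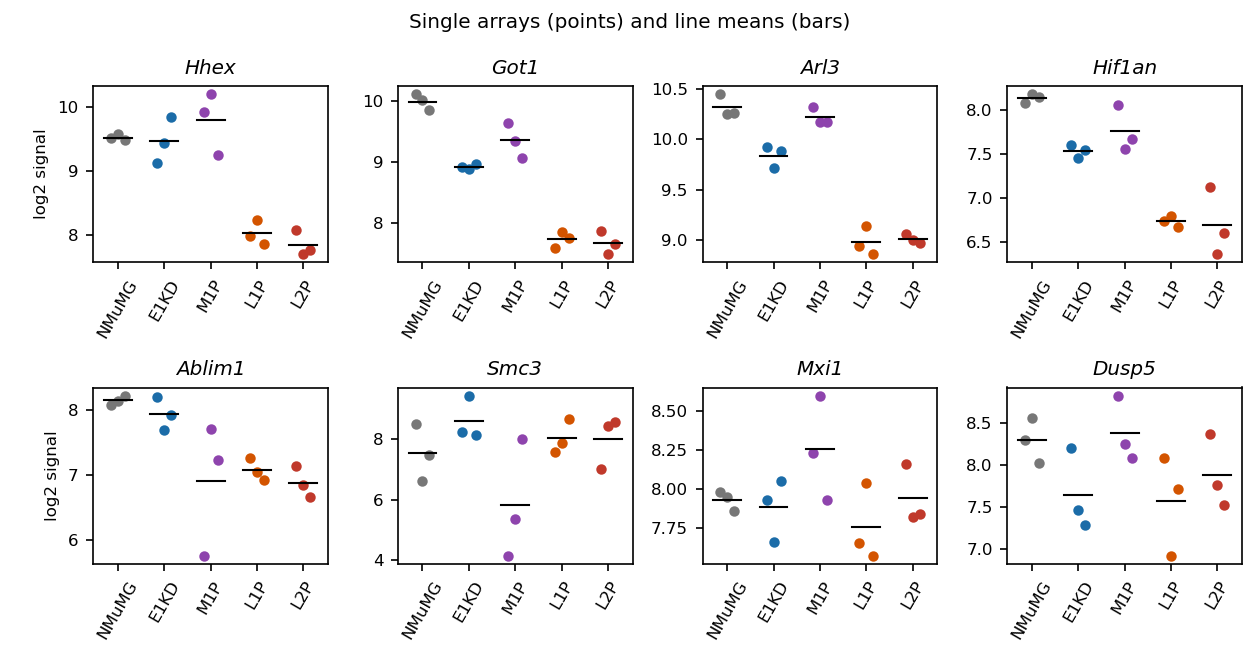
Log2 signal (vertical axis) of 8 members on every array, points for arrays and bars for the mean of 3. Hhex, Got1, Arl3, Hif1an and Ablim1 have both lung lines below E1KD without overlap, while Smc3, Mxi1 and Dusp5 overlap and Smc3 is lowest on M1P arrays 1 and 2.

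Members were also read by probe sets that were not used. Over 89 further probe sets of 40 members, 81 were lower in L1P and 84 in L2P than in E1KD, with medians of -0.21 and -0.23. Among the 27 of these with a mean above 6, from 15 genes, 26 and 27 were lower, with medians of -0.32 and -0.43.

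The genes that lie between the members but are not on the list were lower too. Above a mean of 6 there were 61 such genes, with medians of -0.46 in L1P and -0.49 in L2P against E1KD, 55 of them lower in each line. All 3 arrays lay below E1KD for 68.9% of them in L1P and 59.0% in L2P, against 74.5% and 55.3% of the members and 14.2% and 10.6% of 7887 genes on other chromosomes. Listed and unlisted genes of the region thus stood at similar medians. Single genes departed from them in both directions. The 5 lowest unlisted genes by the mean of both differences were Blnk, a B cell adaptor, at -2.39 and -2.83, Pik3ap1, a phosphoinositide 3-kinase adaptor, at -1.91 and -1.74, the nucleotidase Entpd7 at -1.09 and -0.87, the repair factor Slf2 at -0.93 and -0.95, and the collagen-crosslinking oxidase Loxl4 at -1.10 and -0.73. The 5 highest were the cytochrome P450 gene Cyp2c55 at 2.07 and 2.84, Pdlim1 at 0.67 and 0.87, Ffar4 at 0.25 and 0.75, Shtn1 at 0.62 and 0.25 and Nanos1 at 0.09 and 0.11.

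Nor did the lowering begin at the first member. The 5 genes with a mean above 6 that precede Ide in RefSeq order were Ankrd1 at -0.57 and -0.75, Pcgf5 at -0.63 and -0.55, Tnks2 at -0.43 and -0.69, Btaf1 at -0.71 and -1.02, and Marchf5 at -0.80 and -0.77. No gene above 6 follows the last member in RefSeq order. The 199 genes before the first member had medians of -0.29 and -0.28, a mixture of stretches that differed in direction. With boundaries chosen after the values were seen, 58 genes from the start of the chromosome to Neat1 had medians of 0.26 in both lung lines, with 52 and 45 higher than in E1KD. The 27 genes from Frmd8 to Bad had -0.52 and -0.49, the 13 from Plcb3 to Mark2 had 0.01 and 0.36, the 101 from Rtn3 to Marchf5 had -0.51 and -0.55, and the 108 from Ide to the end, members included, had -0.47 and -0.47. The label distal thus holds for the members, while most of the chromosome from Frmd8 onwards stood lower, apart from the stretch from Plcb3 to Mark2.

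**Figure D4:**
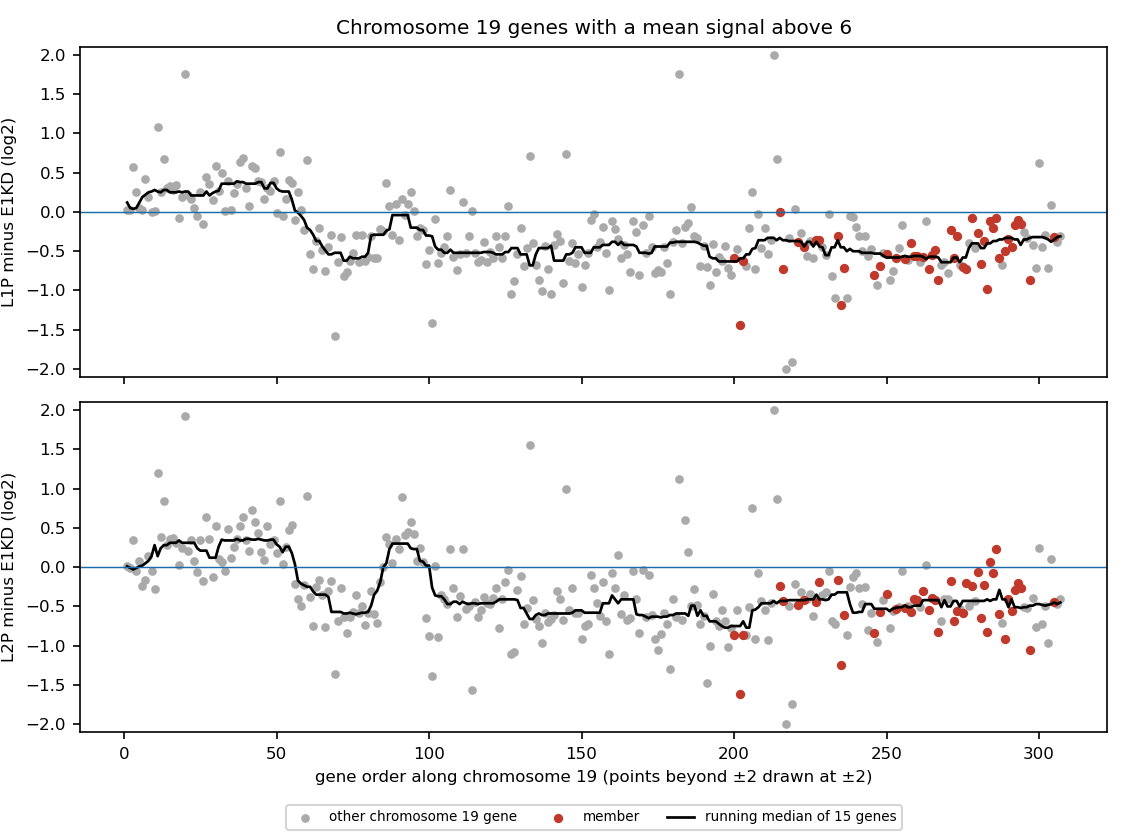
Difference of L1P (top) and L2P (bottom) from E1KD (log2, vertical axis) for chromosome 19 genes with a mean above 6 in RefSeq order (horizontal axis), members in red, with a running median over 15 genes. The running median is mostly above 0 for the first genes, falls below 0, returns in L2P over the stretch from Plcb3 to Mark2, whose 13 genes have a median of 0.36, and lies between -0.75 and -0.29 at the members.

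Chromosome 19 as a whole had medians of -0.37 in L1P and -0.40 in L2P over its 307 genes above 6. The other chromosomes ran from -0.14 for X to 0.60 for chromosome 14 in L1P, and from -0.18 for X to 0.56 for chromosome 14 in L2P. Chromosome 19 was the lowest in both. It was also the lowest in E1KD against NMuMG, at -0.35, where the other chromosomes ran from -0.21 to 0.30.

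**Figure D5:**
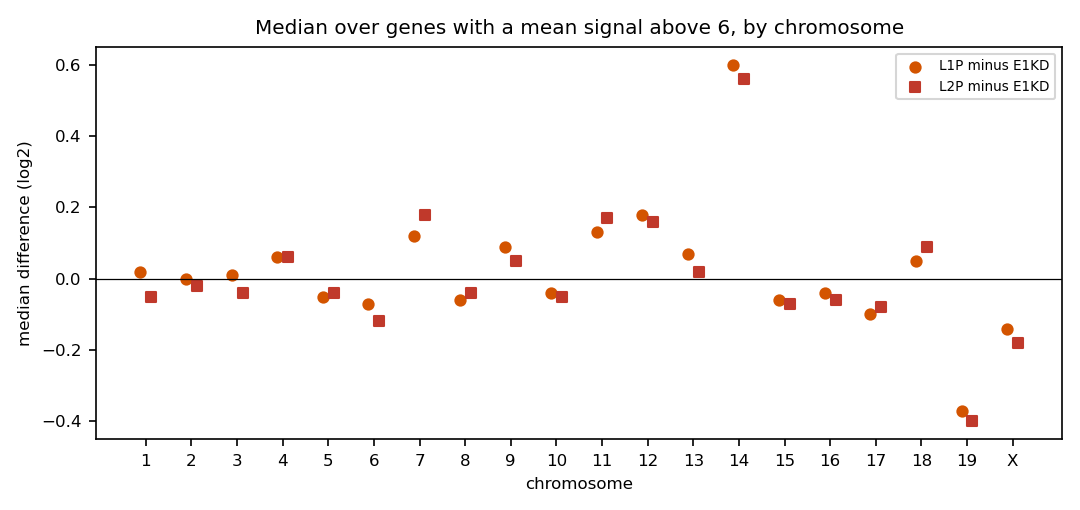
Median difference from E1KD (log2, vertical axis) over genes with a mean above 6 on each chromosome, for L1P (circles) and L2P (squares). Chromosome 19 lies lowest at -0.37 and -0.40 and chromosome 14 highest at 0.60 and 0.56.

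Of the contrasts that did not choose the members, E1KD with NMuMG comes first, although it shares the E1KD arrays with those that did. It sets 1 silenced line against its parental line, so silencing cannot be told apart from other differences between them. Of 56 members, 5 fell and 0 rose by limma with Benjamini-Hochberg adjustment over all genes at 0.05, against a background of 6.49% of all genes that fell and 3.0% that rose. The 5 are 8.93% of the members, close to the background. Nt5c2, a cytosolic nucleotidase that dephosphorylates IMP and GMP, read 8.79, 9.07 and 9.27 in NMuMG and 7.52, 7.52 and 7.67 in E1KD, a log2 difference of -1.47 ± 0.14 (SE; limma adjusted p = 2.27e-05). It stayed at that lower level in every silenced line, between 7.19 and 7.67. Got1 fell by 1.06 ± 0.15 on the log2 scale (limma adjusted p = 0.000464). Hif1an fell by 0.61 ± 0.18 (limma adjusted p = 0.0468), Mrpl43 by 0.60 ± 0.15 (0.0213) and Arl3 by 0.48 ± 0.11 (0.014). Nt5c2 and Got1 passed under all 12 alternatives run, Arl3 under 10, Mrpl43 under 8 and Hif1an under 5. Without NMuMG array 1, 2 members passed, without NMuMG array 2 it was 3, and without E1KD array 2 it was 2. The median over the 47 members was -0.20, beside -0.00 over all genes above 6.

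M1P differed from E1KD in more members and in both directions. Of 56, 10 rose and 12 fell by limma, or 17.9% and 21.4%, against backgrounds of 17.7% and 9.86%. Among genes with a mean above 6 the shares were 17.0% and 23.4% of the members and 22.0% and 18.4% of all such genes, so the falls were near the background at that signal. The largest rises were As3mt at 1.12 ± 0.17 (limma adjusted p = 0.00135), Cnnm2, a magnesium transporter, at 1.08 ± 0.24 (0.00998) and Actr1a at 0.82 ± 0.18 (0.00993). The largest falls were Smc3 at -2.77 ± 0.81 (limma adjusted p = 0.028), Eif3a at -2.05 ± 0.56 (0.0227) and Rab11fip2 at -2.02 ± 0.62 (0.0325). These falls were deepest on M1P arrays 1 and 2. Smc3 read 4.16, 5.35 and 7.99 in M1P, Eif3a 8.84, 10.43 and 11.72 and Rab11fip2 3.10, 4.88 and 5.66, so array 1 was lowest, and array 3 was highest but still below every E1KD array. Without M1P arrays 1 and 2 the differences were -0.62, -0.65 and -0.90, and 2 members in all passed, 1 in each direction. Without array 1 of M1P 8 passed and without array 3 of M1P 31; without E1KD array 1 it was 13, without E1KD array 2 it was 2 and without E1KD array 3 it was 8. The median was 0.06 for the members above 6 and 0.06 for all such genes.

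M1P against NMuMG shares no array with the lung comparisons. Here 2 members rose and 8 fell by limma, or 3.57% and 14.3%, against backgrounds of 7.28% and 4.56%. Among genes with a mean above 6 the shares were 2.13% and 14.9% of the members and 10.6% and 6.61% of all such genes. As3mt rose by 1.24 ± 0.17 (limma adjusted p = 0.000278), from 2.67, 2.82 and 2.55 to 4.15, 3.78 and 3.83, and Cuedc2 by 0.63 ± 0.16 (0.021). The largest falls were Nt5c2 at -1.58 ± 0.14 (limma adjusted p = 1.12e-05), Pcgf6 at -1.45 ± 0.37 (0.0239) and Pdcd4 at -1.40 ± 0.37 (0.0284). Taf5, Ablim1, Sh3pxd2a, Arhgap19 and Got1 fell as well, by 1.39, 1.25, 1.15, 1.09 and 0.64 on the log2 scale. Without M1P arrays 1 and 2, 9 passed, 1 rise and 8 falls; Cuedc2 at 0.52, Arhgap19 at -0.53 and Pdcd4 at -1.62 no longer did. As3mt passed under 12 of 12 alternatives and Nt5c2 under 13 of 13, Taf5 and Sh3pxd2a under 12 of 13, Got1 under 11, Pcgf6 and Cuedc2 under 9, Ablim1 and Arhgap19 under 8 and Pdcd4 under 6 of 12. Leaving out NMuMG array 1, 2 or 3 left 6 calls each, and leaving out M1P array 3 gave 22. The median of the members above 6 was -0.16, beside -0.07 for all such genes.

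The lines of the first and second lung passage were also compared with each other. None of the 56 passed in L2P against L1P by limma, and none had an unadjusted p under 0.05, where 0.0934% of all genes rose and 0.0495% fell, 26 genes in all, and 414 had an unadjusted p under 0.05. No other tool was run. Differences ran from -0.49 to 0.53, with a median of 0.00. No further shift of the members was detected from L1P to L2P, which does not show that the lines are equal.

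Genes elsewhere that work with the members were read from lists of binding partners and pathway neighbours, 79 genes of which 74 had a probe set and 2 (Rela and Ppp1ca) lie on chromosome 19. In L1P against E1KD 0 rose and 1 fell by limma, against backgrounds of 1.19% and 1.29%, with a median of 0.03. In L2P 1 rose and 1 fell, against backgrounds of 2.14% and 1.64%, with a median of 0.01. Without adjustment 13 and 11 of the 74 had a limma p under 0.05, beside 1823 and 2125 of all 18193 genes. The gene that fell in both was Add2, an adducin like Add3, with 7.08, 6.63 and 6.69 in E1KD, 5.18, 5.27 and 5.42 in L1P and 5.55, 5.46 and 4.83 in L2P. Its differences were -1.51 ± 0.22 (limma adjusted p = 0.00151) and -1.52 ± 0.22 (0.00103), and it passed under all 12 alternatives in each. Max, the partner of Myc and of Mxi1, rose by 0.45 ± 0.11 in L2P (limma adjusted p = 0.0364), which held under 3 of 12 alternatives.

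By list, the medians of the partners lay between -0.15 and 0.30. The other eIF3 subunits, 10 measured, had medians of 0.08 in L1P and 0.11 in L2P, and the 9 cohesin genes 0.08 and -0.01. The 9 NF-kB and IkappaB kinase genes had -0.13 and 0.00, the 7 Hedgehog genes -0.05 and -0.15, the 9 TCF and Wnt genes -0.01 and 0.04 and the 6 Myc and Max family genes 0.13 and 0.30. The 11 other TFIID genes had 0.09 and 0.00, the 7 other exocyst subunits 0.08 and 0.10, and the 6 adducin and Shoc2 partners -0.11 and -0.13. None of these lists was tested as a set.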

How the data were processed

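The authors deposited log2 signals per probe set for 15 arrays, 1 table of 45101 probe sets, made with RMA, MAS5 and the Affymetrix Expression Console per the submitters' processing notes, which give no versions. The labels' protocols give 100 ng of total RNA per array, amplified from the 3′ end. Values ran from 1.53 to 14.68 with array medians of 4.17 to 4.26 and were used as deposited. Arrays have no read depth, and precision is limited by having 3 per line.

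Names came from the platform annotation, with symbols updated by RefSeq identifier (34741 probe sets; 204 kept the platform symbol). Of the probe sets, 34945 had 1 symbol, 932 several and 9160 none, and 64 were controls. Each of 18193 genes was read by its probe set of highest overall mean. Gene order and promoters came from RefSeq (GRCm38.p6); the array table itself names no genome build.

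The linear model had a coefficient for every line and used all 15 arrays together (limma 3.58.1, R 4.3.3), with moderated two-sided tests (10 residual and 2.98 prior degrees of freedom) and Benjamini-Hochberg adjustment over all genes, called at 0.05; it was tested on simulated data. All lines share 1 estimate of spread. The members, the role and partner lists and the cell type markers were chosen with earlier results of these data known. Array values are printed for the member with the highest mean and the most lowered member of each role group. They are also printed for the 3 members with the most positive lung difference, some of the called genes and a few genes outside the member list. Other genes are given by their differences. Values after ± are SDs for levels and standard errors for differences. Alternatives changed the normalization, probe set choice, low-signal filter, array weights, replicate block, lines fitted and arrays left out. The counts without L2P array 1 and the medians against M1P array 3 alone were added after seeing the data.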

Additional observations from a re-analysis of the deposited data

How the results depend on the processing

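The lowering in the lung lines kept its direction under every alternative run. The median of the members against E1KD was -0.53 in L1P and became -0.59 with quantile normalization, -0.38 with the mean of all probe sets, -0.50 with a minimum mean of 5 or of 8 and -0.46 with no minimum; leaving out an array gave -0.54 to -0.48. In L2P it was -0.44, and leaving out an array gave -0.54 to -0.40.

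Counts of called members depended more on the setting. For E1KD against NMuMG, 5 became 16 with array weights and 13 with only these lines fitted, and 2 to 5 with an array left out. For M1P against E1KD, 22 became 0 with only these lines fitted, 2 without M1P arrays 1 and 2, and 2 to 31 with an array left out. For M1P against NMuMG, 10 became 2 with only these lines fitted and 6 to 22 with an array left out. For L2P against L1P the count was 0 under all 12 alternatives. Called partners in L1P, 1 in the main analysis, numbered 12 with array weights, 2 with a replicate block, 8 with only these lines fitted and 1 to 2 with an array left out. In L2P, 2 became 1 with quantile normalization, 1 with only genes above 6, 11 with array weights and 1 with any array left out. With fewer arrays in a fit, a lone remaining array is assumed to vary like the other lines.

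Counts over all genes moved as well. Against NMuMG, E1KD had 1727 called genes, 4113 with array weights and 3439 with only these lines fitted, and M1P had 2153, 3673 and 448. M1P against E1KD had 5015, then 67 with only these lines fitted and 809 without M1P arrays 1 and 2. L1P against E1KD had 452, then 1591 with array weights, 1195 with only these lines fitted and 250 with only genes above 6. L2P against E1KD had 687, then 2545 with array weights and 369 with only genes above 6. L2P against L1P had 26, then 138 and 5. With an array left out, the counts were 999 to 1245 for E1KD against NMuMG (lowest without E1KD array 2), 1106 to 8510 for M1P against E1KD (without E1KD array 2 and M1P array 3; 2021 without M1P array 1) and 1134 to 5201 for M1P against NMuMG (without NMuMG array 3 and M1P array 3). They were 272 to 298 for L1P against E1KD (lowest without L1P array 1), 424 to 602 for L2P against E1KD and 18 to 34 for L2P against L1P. The causes were not tested. The smallest array weights were 0.122 for M1P array 1, 0.299 for M1P array 3 and 0.301 for L2P array 1, and M1P array 2 had 1.83.

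How far arrays of the same replicate number deviated together varied with the pair of lines. Same-numbered arrays of different lines deviated with correlations from -0.50 to 0.75, over 0.1 in 16 of 30 pairs. Of 10 pairs of lines, 1, M1P and L2P, had every same-numbered correlation over 0.1 (0.13 to 0.75), and it was not tested here. With the replicate number as a block, 6, 28, 12 and 0 members were called in place of 5, 22, 10 and 0. Over all genes the block gave 2183, 6911, 2995 and 30 calls in place of 1727, 5015, 2153 and 26. An effect shared by same-numbered arrays was not tested.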

Other observations

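Within chromosome 19, the stretch from Plcb3 to Mark2 had the largest median difference between the lung lines among the 5 stretches described. All 13 of its genes with a mean above 6 had a higher mean in L2P than in L1P, by 0.01 to 0.73 with a median of 0.35, and for 9 of them all L2P arrays lay above all L1P arrays. Nudt22, which hydrolyses UDP-glucose, read 6.76, 7.06 and 6.84 in L1P and 7.68, 7.39 and 7.78 in L2P. None passed limma at the adjusted threshold. An unadjusted limma p under 0.05 was found for 6 of the 13, beside 414 of all 18193 genes. The flanking stretches had L2P minus L1P medians of 0.01 and -0.01. There, all L2P arrays lay above all L1P arrays for 2 of 27 and 7 of 101 genes. The share of all genes separated in this way was not counted. The stretch was chosen after its values were seen, so these are descriptions.

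The genes from the start of the chromosome to Neat1 also differed between the older lines. Their median was -0.59 in E1KD against NMuMG, with 50 of 58 lower, and 0.60 in M1P against E1KD, with 52 of 58 higher; these comparisons share the E1KD arrays. M1P against NMuMG had -0.03. The next stretches had similar values: from Frmd8 to Bad the medians were -0.65, 0.65 and 0.02, with 26 of 27 lower and then 26 higher, and from Plcb3 to Mark2 they were -0.51, 0.57 and 0.02.

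Cyp2c55, which lies among the members, read 3.19, 3.08 and 3.62 in NMuMG, 6.59, 6.93 and 6.58 in E1KD, 8.66, 8.56 and 9.07 in L1P and 8.97, 9.73 and 9.91 in L2P. Beside it Pdlim1 was also higher in both lung lines than in E1KD. The member next to Pdlim1, Aldh18a1, differed by 0.00 in L1P and -0.24 in L2P. Further out, the members Exoc6 on one side and Tctn3 on the other were lower in both lung lines. Blnk read 8.53, 8.32 and 8.13 in E1KD, 5.90, 5.61 and 6.29 in L1P and 5.76, 5.26 and 5.46 in L2P.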
